A study of Homo sapiens with 4 samples.

Results

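The 10 genes described here encode the cyclins and cyclin-dependent kinase (CDK) inhibitors that set the pace of the G1 phase of the cell cycle. They were taken by name from the deposited tables of 19626 genes, and all 10 were present. The members are 3 D-type cyclins (CCND1, CCND2, CCND3), 2 E-type cyclins (CCNE1, CCNE2), 3 CIP/KIP inhibitors (CDKN1A, CDKN1B, CDKN1C) and 2 INK4 inhibitors (CDKN2B, CDKN2C). RNA came from ES-2, an established human ovarian clear cell carcinoma line whose endogenous YAP1-MAML2 (YM) fusion was the subject of the study. Cells received lentiviruses carrying either a non-targeting shRNA (shCtl, n = 2 biological replicates) or an shRNA against MAML2 (shMAML2, n = 2). Every sample thus carried an shRNA virus, and the labels put harvest at 96 h after the first infection, whereas the study's methods give a shorter time. The MAML2 shRNA targets sequence present in MAML2 and in the fusion, so lower MAML2 and lower fusion RNA cannot be told apart, and a single hairpin in a single line was sequenced.

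D-type cyclins bind CDK4 and CDK6, and E-type cyclins bind CDK2. The resulting kinases phosphorylate RB1 and its relatives and release E2F transcription factors for entry into S phase. INK4 proteins bind CDK4 and CDK6 and keep D-type cyclins from them. CIP/KIP proteins bind cyclin-CDK complexes more broadly, inhibit CDK2 complexes and can also help to assemble cyclin D with its kinases.

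Libraries held between 20051083 and 23978660 estimated counts. MAML2, the targeted gene, was counted 1436 and 1402 times in shCtl against 634 and 553 times in shMAML2, and its RPKM (reads per kilobase of transcript, scaled to library size) in shMAML2 was 36.2% of that in shCtl. YAP1, the other gene of the fusion, had a mean RPKM of 82.4 in shCtl and 106 in shMAML2. Of the ovarian and epithelial marker genes read, KRT7, KRT8 and KRT18 had an RPKM above 1. PAX8, NAPSA, WT1, EPCAM and CDH1 were below 0.39 in every library, so the clear cell lineage of the label rested on keratins alone. The summed RPKM of these markers was 637 in each shCtl library and 313 and 316 in shMAML2. Fibroblast markers summed to 8.49 and 8.61 in shCtl and to 26.9 and 26.5 in shMAML2. PDGFRA held most of that sum, and DCN, LUM, POSTN, COL1A2 and COL3A1 were below 0.42 in every library. The leukocyte sum was nearly all CD68, at 57.3 and 56.9 in shCtl and 37.8 and 39.01 in shMAML2. CD14 was higher in shMAML2 (0.0777 and 0.102 against 0.890 and 0.866), LYZ ranged from 0.129 to 2.34 within shMAML2, and PTPRC was at 0.0173 or less. The endothelial sum was 9.40 and 10.6 in shCtl and 5.65 and 5.09 in shMAML2. Within it CDH5 was lower in shMAML2 and PECAM1 higher (0.0376 and 0.0308 against 1.31 and 0.922), while VWF was at 0.0855 or less. The part of these markers in the results below was not tested. These are bulk samples, in which fewer cells of a type and less RNA per cell cannot be told apart.

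The windows before the start sites of CDKN2B and CDKN1A are shown because these called members had an entry among the RefSeq promoter sequences used (build GRCh38.p14). The 250 bases upstream of the CDKN2B start lie at chr9:22009306-22009555 (minus strand). Those before the CDKN1A start used lie at chr6:36678464-36678713 (plus strand). That RefSeq start falls inside the CDKN1A gene as GENCODE gives it, from 36676460 to 36687337. The bases before the GENCODE start of CDKN1A were not searched. Each window is written in the direction of the gene, and capitals mark matches to the motifs searched.
CDKN2B: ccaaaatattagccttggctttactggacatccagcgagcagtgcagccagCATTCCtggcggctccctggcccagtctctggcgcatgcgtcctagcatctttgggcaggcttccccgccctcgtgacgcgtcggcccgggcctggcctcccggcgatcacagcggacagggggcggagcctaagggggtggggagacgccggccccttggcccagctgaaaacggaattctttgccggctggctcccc
CDKN1A: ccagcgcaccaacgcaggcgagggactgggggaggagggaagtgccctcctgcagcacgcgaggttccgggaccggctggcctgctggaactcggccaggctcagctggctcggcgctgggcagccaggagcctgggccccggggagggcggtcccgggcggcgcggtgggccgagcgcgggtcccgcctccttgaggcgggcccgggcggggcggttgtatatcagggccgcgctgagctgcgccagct
The motifs were GGAATG (bound by TEAD factors, the DNA-binding partners of YAP1), TTTCGCGC and TTTGGCGC (E2F), CACGTG (E-box), TGTTTAC (FOXO), TGACGTCA (CRE) and TGACTCA (AP-1). They were sought on both strands, from 250 bases before to 50 after the start, in 10 windows of the 6 members with an entry. CCND1, CCND2, CCNE2 and CDKN1C had none. The CDKN2B window held 1 match, CATTCC, the reverse complement of the TEAD motif, starting 199 bases before the start site. The CDKN1A window held none of the 7 motifs. Among the other members, 2 of 3 CDKN2C windows and 1 of 3 CCND3 windows held GGAATG in either orientation, 2 of 3 CDKN2C windows held the E-box, and 1 of 3 CCND3 windows held the FOXO motif. Of all 35116 windows of this length, 14.0% held the TEAD motif, 0.515% the former and 0.652% the latter E2F motif, 7.26% the E-box, 3.42% the FOXO motif, 1.85% the CRE and 4.95% the AP-1 motif. The TEAD motif stood in 11.5% of the windows of tested genes.

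CDKN2B was 5.85-fold, CDKN1A 4.31-fold and CCNE2 6.80-fold higher in shMAML2 than in shCtl. CCND1, the most abundant member, rose 1.79-fold and CCND3 1.34-fold. CDKN2C, an INK4 inhibitor like CDKN2B, fell to 59.7% of its control RPKM. CCNE1 and CDKN1B did not pass the test, and CCND2 and CDKN1C were near 0.
Folds and p-values come from edgeR's quasi-likelihood test over the 12157 genes whose RPKM exceeded 1 in any library, with Benjamini-Hochberg adjustment over all of them. Rose and fell are used for an adjusted p of 0.05 or less, and a gene was called when its fold change was also 2 or more. Of the 10 members, 8 were tested, 3 were called higher and 0 lower. Of all genes tested, 9.24% were called higher and 8.93% lower. With no fold change limit, 5 members rose and 1 fell, against 36.3% and 36.4% of all genes tested. The median log2 fold change of the 8 was 0.63, and that of all genes tested was -0.00373. CCNE2 passed the RPKM filter through the shMAML2 libraries alone, so that its place among tested genes was itself tied to its being higher there.

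**Figure D1:**
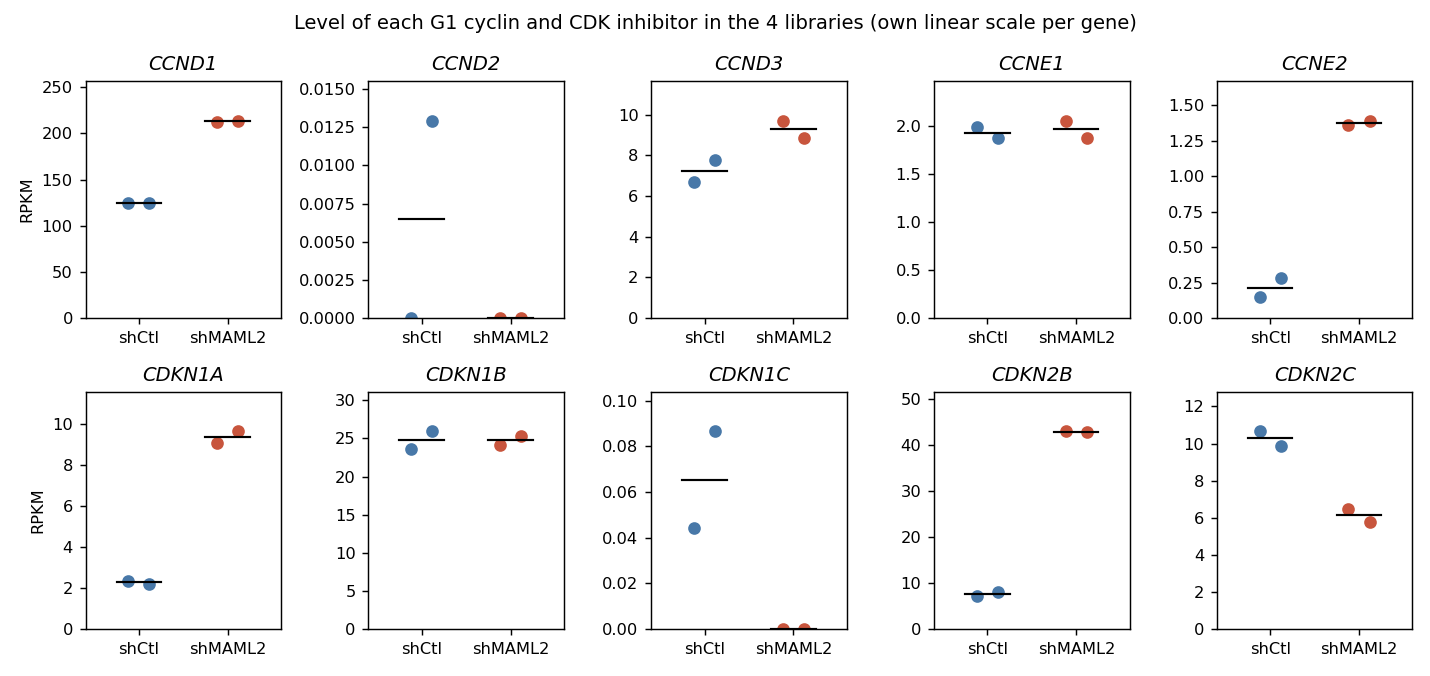
RPKM of each of the 10 genes in the 2 shCtl (blue) and 2 shMAML2 (red) libraries, with a point per library, the group mean as a black bar and a linear axis from 0 for each gene. CDKN2B, CDKN1A, CCNE2, CCND1 and CCND3 lie higher and CDKN2C lower in both shMAML2 libraries, whereas CCNE1 and CDKN1B overlap.

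CCND1 encodes cyclin D1, the D-type cyclin that links growth signals to CDK4 and CDK6. It lies on chromosome 11 from 69641156 to 69654474 (hg38, GENCODE release 44, plus strand). CCND1 was counted 12373 and 12527 times in shCtl against 25730 and 23496 times in shMAML2. Its RPKM was 125 and 124 in shCtl and 212 and 214 in shMAML2, and the groups did not overlap. On the log2 scale CCND1 differed by 0.84 (standard error 0.0358, adjusted p = 1.15e-10), short of a fold change of 2. Under the 12 alternative settings this difference lay between 0.77 and 0.86, so CCND1 was called under none of them. CCND1 stood above 98.2% of all genes in shCtl and 99.2% in shMAML2. Its exons share 497 bases with LTO1 on the opposite strand, and the libraries carry no strand. LTO1 had 1039 to 1456 counts per library, far fewer than CCND1.

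CCND3, the gene of cyclin D3, lies on chromosome 6 from 41934934 to 42050357 (minus strand). It had an RPKM of 6.71 and 7.77 in shCtl and 9.70 and 8.87 in shMAML2. Its log2 fold change was 0.43 (standard error 0.0904, adjusted p = 0.000807), and each shMAML2 library was above each shCtl library by a small margin. CCND2, the gene of cyclin D2, had 2 counts in shCtl replicate 2 and 0 in the other 3 libraries. At this depth CCND2 RNA was not detectable in shMAML2, where 0 counts allow up to 3 per library.
The summed RPKM of the D-type cyclins averaged 132 ± 0.371 in the shCtl libraries (SD, n = 2) and 222 ± 0.708 in the shMAML2 libraries (SD, n = 2). CCND1 made up 94.9% and 94.1% of that sum in shCtl and 95.6% and 96.0% in shMAML2. The D-type cyclin RNA of ES-2 cells was therefore almost all CCND1 in each group. CCND1 per CCND3, a ratio within a library that no scaling between libraries can alter, was 18.6 and 16.0 in shCtl and 21.8 and 24.1 in shMAML2. With 2 against 2 libraries an exact permutation test cannot go below p = 0.333, which is what each of the family sums gave (two-sided), so sums and ratios are given as descriptions.

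CCNE1 and CCNE2 encode the cyclins that activate CDK2 at the entry to S phase. CCNE1, on chromosome 19 from 29811991 to 29824312 (plus strand), had an RPKM of 1.99 and 1.87 in shCtl and 2.05 and 1.88 in shMAML2, with ranges that overlapped. Its log2 fold change was 0.09 with a standard error of 0.22 (adjusted p = 0.714). A change no larger than that error was not detectable at this depth, and larger ones in either direction may also have been missed.
CCNE2 was counted 9 and 18 times in shCtl against 106 and 98 times in shMAML2. The corresponding RPKM was 0.148 and 0.282 in shCtl and 1.36 and 1.39 in shMAML2. CCNE2 differed by 2.77 on the log2 scale (standard error 0.374, adjusted p = 1.57e-05), with the widest error of the called members. Its size rests on the few control counts. It was 3.33 without shCtl replicate 2 and 2.37 without shCtl replicate 1, and on the log2(RPKM + 1) scale it was 0.97 and no longer called. CCNE2 shares 1629 exonic bases with INTS8 on the opposite strand. INTS8 had 1332 to 1836 counts per library, far more than CCNE2. It moved the other way, with a log2 fold change of -0.47 (adjusted p = 3.82e-06). The libraries carry no strand, and the part of INTS8 reads in the CCNE2 counts was not tested.
The E-type cyclins together had a summed RPKM of 2.14 and 2.15 in shCtl against 3.42 and 3.27 in shMAML2. CCNE2 was 6.91% and 13.1% of that sum in shCtl and 39.9% and 42.6% in shMAML2. Cyclin E RNA thus remained far below cyclin D RNA per unit length, while its make-up went from nearly all CCNE1 to a mixture.

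**Figure D2:**
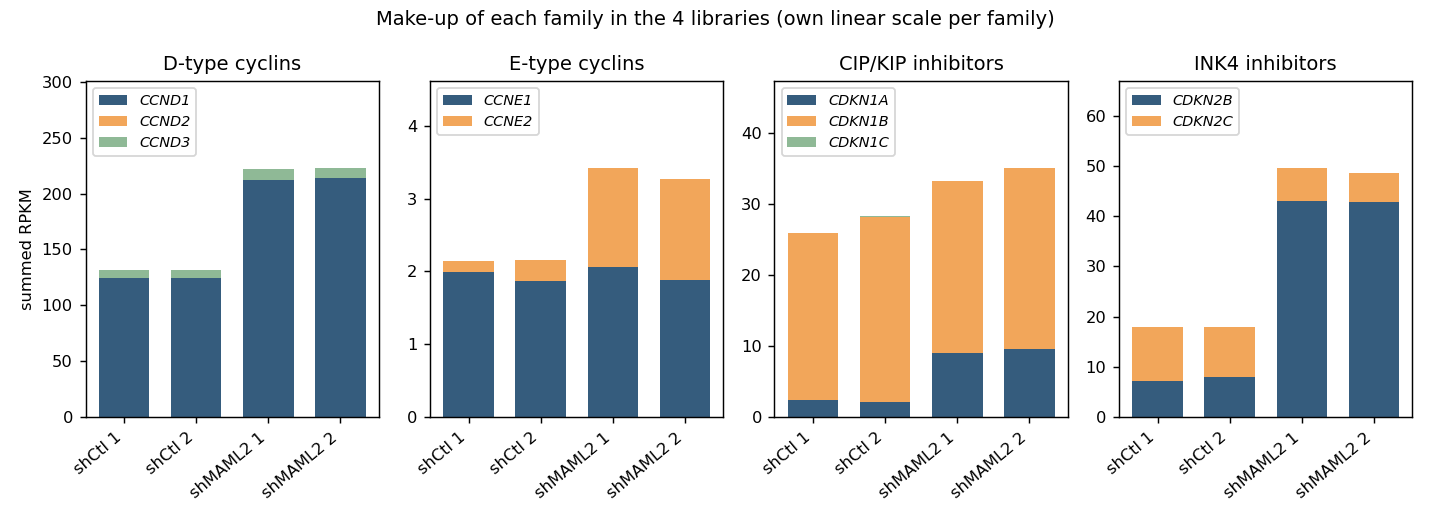
Summed RPKM of the D-type cyclins, E-type cyclins, CIP/KIP inhibitors and INK4 inhibitors in each of the 4 libraries, as stacked bars from 0 on a linear axis for each family. CCND1 makes up most of the D-type bar in every library, whereas CCNE2, CDKN1A and CDKN2B take a larger part of their family in the shMAML2 libraries.

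CDKN1A encodes p21, a CIP/KIP inhibitor best known as a p53 target. It lies on chromosome 6 from 36676460 to 36687337 (hg38, plus strand). CDKN1A was counted 156 and 148 times in shCtl against 736 and 708 times in shMAML2. Its RPKM was 2.35 and 2.19 in shCtl and 9.08 and 9.66 in shMAML2, and both shMAML2 libraries were well above both controls. CDKN1A differed by 2.11 on the log2 scale (standard error 0.109, adjusted p = 9.17e-10), and it stayed called under all 12 alternatives, between 1.66 and 2.16. In shMAML2 it stood above 74.5% of all genes. DINOL, which shares 146 exonic bases with CDKN1A on the other strand, had 0 to 2 counts per library.

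CDKN1B encodes p27, the CIP/KIP inhibitor most linked to quiescence, on chromosome 12 from 12685498 to 12722369 (plus strand). Its RPKM was 23.6 and 25.9 in shCtl and 24.2 and 25.3 in shMAML2, with the shMAML2 values inside the control range. For CDKN1B the log2 fold change was 0.07 (standard error 0.0616, adjusted p = 0.350). CDKN1C, the gene of p57, was counted 2 and 4 times in shCtl and 0 times in each shMAML2 library, too few to compare. In a fit with no filter on low values its adjusted p was 0.160.
CDKN1A was 9.07% and 7.76% of the summed CIP/KIP RPKM in shCtl and 27.3% and 27.6% in shMAML2. CDKN1A per CDKN1B within a library averaged 0.0922 in shCtl and 0.379 in shMAML2. CDKN1B therefore remained the more abundant of the pair per unit length in every library. The CIP/KIP sum averaged 27.1 ± 1.601 in the shCtl libraries (SD, n = 2) and 34.1 ± 1.24 in the shMAML2 libraries (SD, n = 2).

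CDKN2B encodes p15, an INK4 inhibitor of CDK4 and CDK6 known as a TGF-beta response gene. It lies on chromosome 9 from 22002903 to 22009305 (hg38, minus strand), beside CDKN2A. CDKN2B was counted 678 and 767 times in shCtl against 4912 and 4421 times in shMAML2. Its RPKM was 7.27 and 8.09 in shCtl and 43.0 and 42.8 in shMAML2, so every shMAML2 value was far above the controls. CDKN2B differed by 2.55 on the log2 scale (standard error 0.0552, adjusted p = 1.15e-13), the smallest p of the members, and it was called under all 12 alternatives, between 2.34 and 2.62. The annotation places no other gene's exons over those of CDKN2B. CDKN2B stood above 70.1% of genes in shCtl and 94.8% in shMAML2.

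CDKN2C encodes p18, a further INK4 inhibitor that in many cell types is itself an E2F target. It lies on chromosome 1 from 50960745 to 50974634 (plus strand). CDKN2C was counted 550 and 518 times in shCtl against 409 and 330 times in shMAML2. Its RPKM was 10.7 and 9.89 in shCtl and 6.49 and 5.78 in shMAML2, so the groups did not overlap. CDKN2C differed by -0.68 on the log2 scale (standard error 0.101, adjusted p = 4.08e-05), the sole fall among the members tested. Its exons share 617 bases with an antisense long noncoding RNA that was not analysed here.
The members of the INK4 family thus moved in opposite directions. CDKN2B per CDKN2C within a library was 0.681 and 0.818 in shCtl and 6.63 and 7.40 in shMAML2, so the less abundant of the pair became the more abundant. The summed RPKM of the pair was 17.9 and 18.0 in shCtl and 49.5 and 48.6 in shMAML2.

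**Figure D3:**
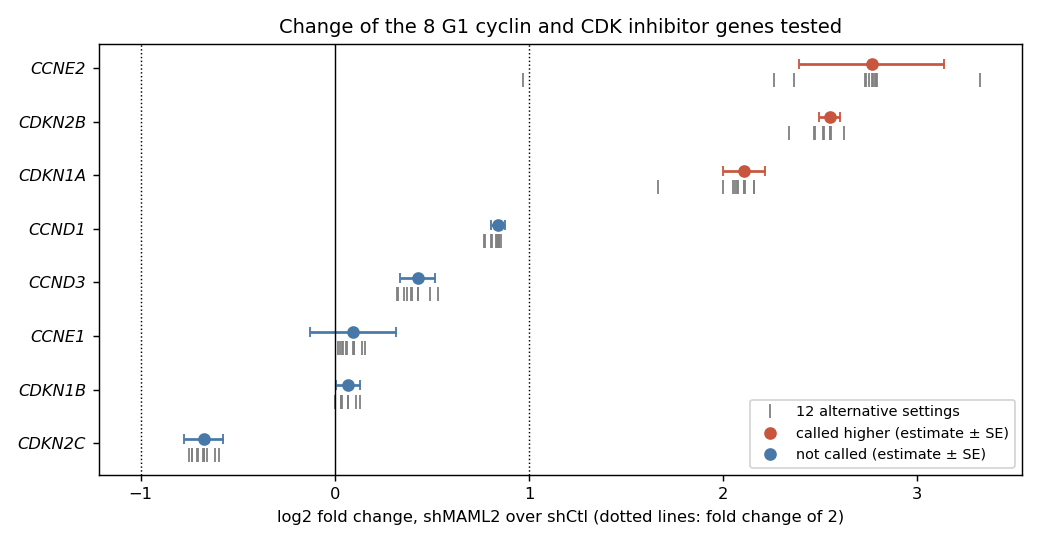
log2 fold change (shMAML2 over shCtl) of the 8 genes tested, with points and bars for the estimate and its standard error and grey ticks for 12 alternative settings. CDKN2B and CDKN1A lie beyond the dotted line at a fold change of 2 under every setting, CCNE2 under all but the log2(RPKM + 1) scale, and CCND1 under none.

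In order of RPKM in shCtl, CCND1 came first, followed by CDKN1B, CDKN2C, CDKN2B, CCND3, CDKN1A, CCNE1, CCNE2, CDKN1C and CCND2. In shMAML2 the order was CCND1, CDKN2B, CDKN1B, CDKN1A, CCND3, CDKN2C, CCNE1 and CCNE2, with CCND2 and CDKN1C at 0. Neighbours in this order that overlapped were CDKN2B and CCND3 in shCtl and CDKN1A and CCND3 in shMAML2. CDKN2B moved up from place 4 to place 2, while CDKN2C went from 3 to 6.
The summed RPKM of the 5 inhibitors was 43.9 and 46.2 in shCtl and 82.8 and 83.6 in shMAML2. For the 5 cyclins it was 133 and 134 in shCtl and 225 and 226 in shMAML2. The inhibitors per cyclins, as a ratio of these sums, were 0.329 and 0.345 in shCtl and 0.368 and 0.370 in shMAML2. Cyclin and inhibitor RNA of the members thus went up by similar factors, 1.69 and 1.85, and the ratio between them by 1.10. CCND1 held most of the cyclin sum, and the inhibitor sum leaves out CDKN2A, which is no member, so the ratio depends on the list. Within that ratio CDKN2B per CCND1 went from 0.0583 and 0.0652 to 0.203 and 0.200, and CDKN1B per CCND1 from 0.189 and 0.209 to 0.114 and 0.119.

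The remaining INK4 genes, CDKN2A and CDKN2D, are no members. CDKN2A, which encodes p16 and ARF from partly shared exons, had an RPKM of 112 and 116 in shCtl and 188 and 196 in shMAML2. Its log2 fold change was 0.82 (standard error 0.0417, adjusted p = 7.71e-10), and gene-level counts do not separate p16 from ARF. Its exons share 593 bases with the antisense RNA CDKN2B-AS1, which had 103 counts or fewer per library. CDKN2D, the gene of p19, fell by 0.58 (adjusted p = 0.0100), but did not pass the test without shCtl replicate 1 (-0.45, adjusted p = 0.0719) or without shMAML2 replicate 2 (-0.37, adjusted p = 0.101). With all 4 INK4 genes counted, CDKN2A held 81.7% and 82.8% of their RPKM in shCtl and 77.5% and 79.0% in shMAML2, and CDKN2B 5.31% and 5.78% against 17.8% and 17.2%. CDKN2A therefore held most of the RNA of these 4 genes in both groups, but how much of it encodes p16 is not known.

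Of 8 G1 kinases and activators, 4 fell and 1 rose, beside 36.4% and 36.3% of all genes tested. Of these, CCNH was called lower and CDK6 higher, beside 8.93% and 9.24% of all genes. CDK4 and CDK6, the kinases bound by D-type cyclins and INK4 proteins, changed in opposite directions. CDK4 had an RPKM of 63.4 and 66.2 in shCtl and 52.99 and 54.7 in shMAML2, which is -0.20 on the log2 scale (adjusted p = 0.00160). CDK6 had an RPKM of 11.8 and 11.7 in shCtl and 23.9 and 22.01 in shMAML2. CDK6 differed by 1.03 on the log2 scale (standard error 0.0464, adjusted p = 2.12e-10), and it kept its call under 7 of 12 alternatives, with values from 0.91 to 1.09. The sum of CDK4 and CDK6 was 75.2 and 77.9 in shCtl and 76.9 and 76.7 in shMAML2. CDK6 per CDK4 went from 0.187 and 0.176 to 0.451 and 0.402.
CDK2, the partner of cyclin E, was at -0.05 on the log2 scale (adjusted p = 0.510), and CDC25A, the phosphatase that activates it, at 0.16 (adjusted p = 0.405). CDK7, CCNH and MNAT1 form the CDK-activating kinase, and all 3 fell. Their log2 fold changes were -0.76 for CDK7, -1.08 for CCNH and -0.96 for MNAT1, with adjusted p of 3.96e-07 or less. MNAT1 was called lower under 2 of the 12 alternatives.

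Among pocket proteins and their E2F partners, 6 of 9 tested genes rose and 2 fell, beside 36.3% and 36.4% of all genes tested. None was called, and the median log2 fold change was 0.54. RB1, the pocket protein phosphorylated by cyclin D kinases, rose from an RPKM of 9.72 and 9.06 to 16.6 and 15.5, or by 0.84 in log2 units (standard error 0.061). RBL2 (p130) fell by 0.30, and RBL1 (p107) was at 0.24 (adjusted p = 0.0656). RBL1 depended on single libraries, with 0.057 (adjusted p = 0.677) without shMAML2 replicate 1, 0.41 (adjusted p = 0.00544) without shMAML2 replicate 2 and 0.29 (adjusted p = 0.0245) without shCtl replicate 2. The ends of this list were E2F5 at -0.71 and E2F3 at 0.94, and E2F3 was called without shMAML2 replicate 2, at 1.02. E2F2 was below the RPKM filter.
Of 11 ubiquitin ligases and cofactors that act on G1 cyclins and CDK inhibitors, 3 rose, 3 fell and none was called, shares no larger than those of all genes tested (36.3% and 36.4%). SKP2, which marks p27 for degradation, was at -0.21 on the log2 scale (adjusted p = 0.0578). It passed the test with total counts (adjusted p = 0.0343), on either log2(RPKM) scale (0.0283), with no filter (0.0356) and without shCtl replicate 1 (0.0361), and was between -0.27 and -0.14 under all 12 alternatives. Its cofactor CKS1B fell by 1.00, from an RPKM of 66.0 and 69.8 to 31.9 and 33.2, just short of a call, and was called under 6 of 12 alternatives. CUL4A was the highest of this list at 0.48.

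All 4 cyclins of later phases fell, and 2 of them were called lower, beside 36.4% and 8.93% of all genes tested. CCNB2 had the largest fall, from an RPKM of 84.2 and 86.1 to 28.6 and 29.4 (log2 fold change -1.49, adjusted p = 1.04e-11). CCNA2, the S and G2 partner of CDK2 and CDK1, fell from 19.5 and 20.7 to 9.98 and 8.64, or -1.04 on the log2 scale, which was -0.94 and not called without shMAML2 replicate 2. CCNF had the smallest fall, 0.39. Of the tested cyclin D and E genes none fell.

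Of 15 tested genes known as p53 targets beside CDKN1A, 6 rose and 5 fell, near the shares of all genes tested (36.3% and 36.4%). PHLDA3 and GDF15 were called higher and none lower, beside 9.24% and 8.93% of all genes, and the median log2 fold change was 0.06. GDF15, a stress-induced cytokine, was highest at 2.67 (adjusted p = 8.16e-06), counted 12 and 30 times in shCtl against 146 and 149 times in shMAML2. Its value was 3.45 without shCtl replicate 2, 2.17 without shCtl replicate 1 and 1.69 on the log2(RPKM + 1) scale. PHLDA3 was at 1.16. MDM2, a canonical p53 target, fell by 0.70 (adjusted p = 1.22e-06), and FAS was lowest at -0.76 (adjusted p = 0.0222). FAS passed the RPKM filter through shCtl replicate 1 alone (1.53, against 0.992 in replicate 2). It was past a fold change of 2 without shCtl replicate 2 (-1.05) or shMAML2 replicate 1 (-1.03). It did not pass the test without shMAML2 replicate 2 (-0.53, adjusted p = 0.156) or with limma on log2(RPKM + 0.1) and log2(RPKM + 1) (adjusted p = 0.0526 and 0.0504).
Of 7 FOXO targets read beside CDKN1B, 4 fell and 2 rose, beside 36.4% and 36.3% of all genes tested. TXNIP (-1.27) and IRS2 (-1.21) were called lower, beside 8.93% of all genes, and CCNG2 was the highest at 0.28. The median of the FOXO list was -0.35.

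**Figure D4:**
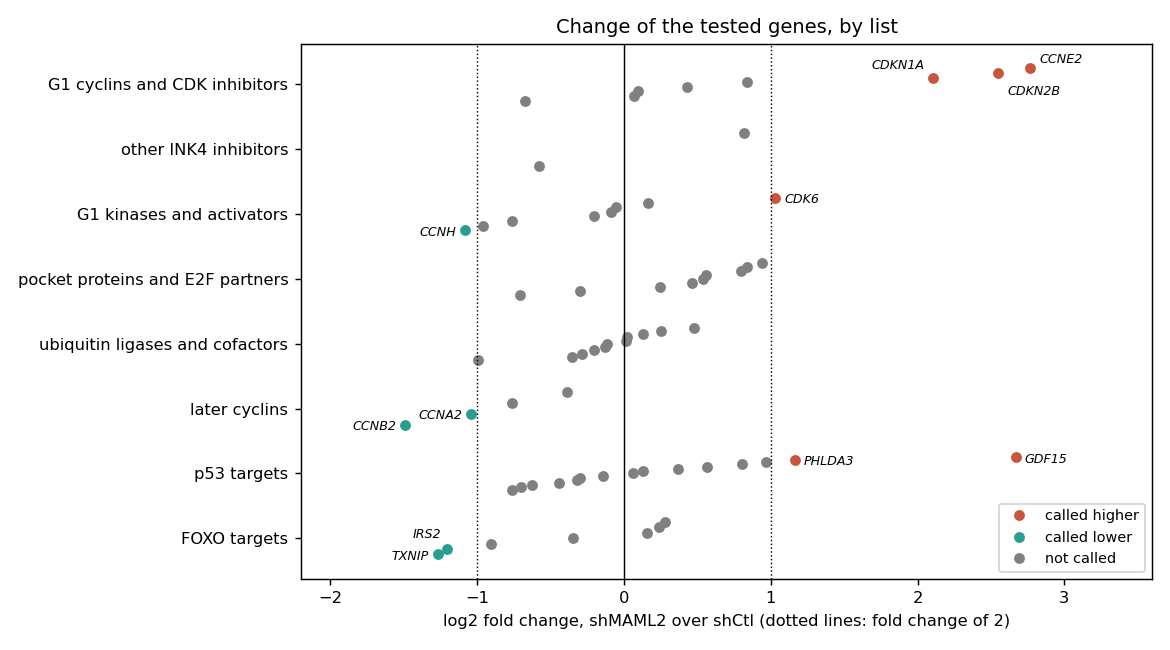
log2 fold change (shMAML2 over shCtl) of each tested gene, in a row per list, with called genes coloured and named and dotted lines at a fold change of 2. CDKN1A, CDKN2B, CCNE2 and the p53 target GDF15 lie above a log2 fold change of 2, and later cyclins all lie left of 0.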

How the data were processed

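RNA of ES-2 cells (2 shCtl and 2 shMAML2 libraries, grouped by the titles of the labels) was read as non-strand-specific paired ends of 150 bases. The authors aligned reads to hg38 with HISAT2 2.0.4, removed ambiguous and low-quality alignments and quantified RefSeq transcripts in Partek 7.18. Their deposited estimated counts carry no normalization, and 42.4% to 48.6% of the values of a library are whole. The deposited RPKM are these counts divided by a length per gene and a factor per library.

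After rounding, the counts entered edgeR 4.0.16 under R 4.3.3 (glmQLFit and glmQLFTest, TMM factors, group as the only term), for all genes whose RPKM exceeded 1 in any library. The test had been planned for counts, and rounding was added because the values were not whole. Standard errors are the log2 fold change divided by the square root of F. Folds are on edgeR's scale, where the TMM-scaled sizes of the shMAML2 libraries, relative to shCtl replicate 1, are smaller (1.177 and 1.055) than their RPKM factors (1.223 and 1.107), and RPKM ratios run slightly lower. The biological coefficient of variation was 0.0485. With 2 libraries per group, SD values rest on pairs. The p-values set the group difference against a spread between these cultures that is estimated with information from all genes. Tested on simulated data with 12157 genes, the fit found 199 of 200 altered genes and called 0 others. The altered genes all changed by more than a fold change of 2. They were fewer than the genes called in the real data, and every gene had the same dispersion. Smaller changes were not simulated.

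Alternatives were edgeR's RLE factors, total counts, DESeq2 1.42.0, limma 3.58.1 on log2(RPKM + 0.1) and log2(RPKM + 1), other filters and fold limits, a replicate block and leaving out each library. The members and lists were chosen with earlier results of these data known. Named genes were the members, MAML2, YAP1, a fixed set of partners (CDK2, CDK4, CDK6, RB1, RBL1, RBL2, SKP2, CDC25A) the ends of each list and, for called members, the gene most like each. Genes named after their values were seen were CDK7, MNAT1, MDM2, PHLDA3, IRS2, CCNA2, genes over or beside members and those holding a marker sum. Protein sequences and the markers MUC16 and TYROBP were not analysed here. Gene coordinates are from GENCODE release 44.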

Additional observations from a re-analysis of the deposited data

How the results depend on the processing

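Of 96 values of the 8 tested members under 12 alternatives, 94 kept their direction and their side of the limits. CCNE2 fell short of a fold change of 2 on the log2(RPKM + 1) scale (0.97), where 1 added unit outweighs its control RPKM, and CDKN1B ranged from -0.000646 (without shCtl replicate 1) to 0.13 (without shCtl replicate 2). The number of members called higher was 5 with no fold change limit, and 1 member was called lower at a limit of 1.5 and with none. Across all genes, 2302 were called lower and 2296 higher at 1.5, 4430 and 4414 with no limit, and 596 higher on the log2(RPKM + 1) scale. Leaving out a library gave 1065 to 1082 lower and 1086 to 1162 higher genes, and 0 lower and 3 higher members each time. With TMM-scaled library sizes the ratio of shMAML2 to shCtl was 1.77 for D-type cyclins, 1.63 for E-type cyclins and 2.86 for INK4 inhibitors, against 1.69, 1.56 and 2.73 in deposited RPKM. Leaving out a library gave 1.68 to 1.69 for D-type cyclins, 1.53 to 1.59 for E-type cyclins, 2.71 to 2.76 for INK4 and 1.21 to 1.32 for CIP/KIP inhibitors.
Counts of the related lists changed by 1 gene near the fold limit. Those of p53 targets called higher and of FOXO targets called lower went both ways. They went up in a fit with a library left out and down on the log2(RPKM + 1) scale. No G1 kinase was called higher (0) with total counts, on either log2(RPKM) scale or with no filter, and 2 were called lower on log2(RPKM + 0.1). A ubiquitin list gene was called lower (1) with total counts, on either log2(RPKM) scale and with no filter, and 1 pocket or E2F gene was called higher with no filter. On log2(RPKM + 1), 1 p53 target was called higher and 1 FOXO target lower. Leaving out a library gave 1 to 2 G1 kinases lower and 0 to 1 higher, 0 to 1 pocket or E2F genes higher, 0 to 1 ubiquitin list genes lower, 1 to 2 later cyclins lower and 0 to 1 p53 targets lower.
The replicate numbers do not pair the samples by the labels, and deviations of same-numbered libraries were uncorrelated over genes (r = -0.0285). A fit with the replicate number as a block called 1079 genes lower and 1123 higher and the members as before (3 higher, 0 lower). CCND2 and CDKN1C, at 4 counts or fewer per library, are limited by depth.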

Other observations

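The genes beside the members on their chromosomes were read after the members' values had been seen. On chromosome 9, CDKN2B lies between genes that changed by different amounts. MTAP had a log2 fold change of 0.49, CDKN2A 0.82 and DMRTA1 -0.21 (adjusted p = 0.178, edgeR, adjusted over all genes tested). CDKN2B-AS1, the antisense RNA of the locus, was below the RPKM filter counted 41 and 33 times in shCtl against 103 and 95 times in shMAML2. LINC01239, further along, was counted 21 and 27 times in shCtl against 440 and 327 times in shMAML2, a log2 fold change of 3.84 (standard error 0.209). Around CCND1 on chromosome 11, LTO1 rose with a log2 fold change of 0.24 while MYEOV fell by 1.11, from 1438 and 1528 counts to 802 and 716. Beside CDKN2C, FAF1 fell by 0.82 and RNF11 rose with 0.28. Beside CDKN1A, STK38 rose with 0.92 and SRSF3 was at 0.09 (adjusted p = 0.0730, edgeR).

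For each called member, the gene outside the list with the nearest profile over the 4 libraries was found as the smallest root mean squared difference of centred log2 CPM. These were CEMIP2 for CDKN2B (0.0147), LPCAT2 for CDKN1A (0.0241) and ANGPT1 for CCNE2 (0.0925). Their log2 fold changes were 2.56 for CEMIP2, 2.15 for LPCAT2 and 2.83 for ANGPT1. The 4 libraries are the ones the members were called in.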
